A study of Homo sapiens with 6 samples.

Results

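The fragments described here come from the 5' end and the D-arm of the tRNA for valine that carries a CAC or AAC anticodon (tRNA-Val-CAC/AAC). They were chosen from the counts table by 2 criteria. The first took rows typed as a 5' tRF (a piece that starts at the 5' end of the tRNA) or a 5'-half (one cut in the anticodon loop), of 19 nt or more, whose MINTbase code starts with 79MP9P. The second took internal tRFs (pieces that start after the first base) that share 14 or more consecutive bases with the longest row of the first kind, which has 37 nt. This gave 99 of 3443 fragments, 18 of them 5' fragments and 81 internal fragments. The criteria themselves use type, length and sequence.

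The counts came from 6 small RNA libraries of A375, an established human melanoma cell line, 3 of wild-type cells (no DUS1L targeting, kept in parallel) and 3 of cells whose DUS1L gene had been disrupted with CRISPR/Cas9 before clones were picked. Wild-type libraries are called wild-type 1 to 3 here and knockout libraries knockout 1 to 3, by the replicate numbers of the labels. The series calls them biological replicates. How many clones gave the knockout libraries is not given in the sources used here, so the p-values measure the spread between libraries, not between clones. The table holds tRNA fragments alone, so neither DUS1L nor any marker of the melanoma line can be read from it.

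A tRNA folds into an acceptor stem, a D-arm, an anticodon arm and a TΨC-arm, and the D-arm is named after dihydrouridine, a reduced uridine in its loop. DUS1L is a dihydrouridine synthase that acts at positions 16 and 17 of the D-loop, while other enzymes of the family modify other positions, such as position 20. Nucleases such as angiogenin, an RNase known for cutting tRNA in the anticodon loop under stress, release 5'-halves, and shorter 5' pieces arise from cuts further upstream. The 5'-half of tRNA-Val-CAC/AAC is a well-known stress-induced fragment.

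The sequences show where these fragments end on the tRNA. The gene TRV-CAC1-1 (RefSeq name; GRCh38, chr1:161399700-161399772, minus strand) is the 1 tRNA-Val gene whose sequence could be read here, from a GENCODE lncRNA, AL592295.4, whose exon 1 covers the gene on the opposite strand. RefSeq lists 13 tRNA genes named Val-CAC, 10 named Val-AAC and 5 named Val-TAC, so a match to this gene does not tell which copy made the RNA. The gene and the fragments that carry most of the results below are written 5' to 3' as DNA, with the T at position 16, the D-loop site, as the capital. Position 17 by count along this sequence is a G.
TRV-CAC1-1, 73 nt, without the added CCA end: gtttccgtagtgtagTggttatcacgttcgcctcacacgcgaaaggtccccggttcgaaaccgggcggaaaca
tRF-23-79MP9P9NDD, 5' tRF, positions 1 to 23: gtttccgtagtgtagTggttatc
tRF-24-79MP9P9NF2, 5' tRF, positions 1 to 24: gtttccgtagtgtagTggttatca
tRF-29-79MP9P9NH525, 5' tRF, positions 1 to 29: gtttccgtagtgtagTggttatcacgttc
tRF-33-79MP9P9NH57SD3, 5'-half, positions 1 to 33: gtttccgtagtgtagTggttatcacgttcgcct
tRF-34-79MP9P9NH57S15, 5'-half, positions 1 to 34: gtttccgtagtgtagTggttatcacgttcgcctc
tRF-22-ZRS3S3RX5, internal, positions 2 to 23: tttccgtagtgtagTggttatc
tRF-20-8W1W18YM, internal, positions 4 to 23: tccgtagtgtagTggttatc
tRF-19-3L7L73JD, internal, positions 5 to 23: ccgtagtgtagTggttatc
tRF-16-ZRS3S30, internal, positions 2 to 17: tttccgtagtgtagTg

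All 18 of the 5' fragments and 73 of the 81 internal ones matched the gene exactly, and the other 8 internal ones each differ from it at 1 base. Those 8 held 13 counts in all, and tRF-16-V4V47QE, with the substitution C23T (gene base, position from the 5' end of the gene, fragment base), held 5 of them. The anticodon occupies positions 34 to 36. Of the 99 fragments, 76 with 9556 of 9935 counts end before position 34 and so cannot separate CAC from AAC genes. Another 22, with 378 counts, carry the base of the CAC type there, and 1 fragment with 1 count, tRF-17-7Q2WW1O, has the substitution C34A of the AAC type. In tRNA with an AAC anticodon the first anticodon base is normally edited to inosine, which sequencing reads as another base, so these counts do not show how much of the RNA came from AAC genes. Outside the members and their 3 shorter 5' forms, 0 rows of the table lie within the gene sequence, and 0 of the 297 rows typed as 3' tRFs match its 3' end with CCA added.

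Library totals ran from 15742 to 32754 counts. Wild-type 3 stood apart from wild-type 1 and 2 for several members, and for some values that rest on it the value without it is given too. Of the 99 members, 84 were too sparse to test. Of all members, 40 had a single count over the 6 libraries. The 15 that passed the low-count filter (9 of the 5' fragments and 6 internal ones) held 94.6% of the members' counts. With edgeR's quasi-likelihood test and Benjamini-Hochberg adjustment over all 235 fragments tested, 4 of the 15 changed at an adjusted p under 0.05, 1 higher and 3 lower in the knockout. Over all 235 fragments 53.6% were called, 25.5% higher and 28.1% lower, and among these 15 members 26.7%. The 3 lower members (tRF-20-8W1W18YM, tRF-24-79MP9P9NF2 and tRF-19-3L7L73JD) reached the filter's level in 3 wild-type libraries and in 2, 1 and 0 knockout libraries. They were tested through the group in which they are high, so their number is no separate evidence. The higher member reached the level in all 6 libraries. The counts moved with single libraries. The number of members tested also differed by setting. Without wild-type 3, 4 of 16 members were higher and 4 lower, where 31.1% and 27.8% of all fragments tested were. Without knockout 1 the counts were 1 and 1 of 15, where 18.2% and 11.3% of all were called. Without wild-type 1 they were 2 and 2 of 16 (23.6% and 19.7% of all). Without knockout 3 they were also 2 and 2 of 16 (23.7% and 18.2% of all). Without knockout 2 the counts stayed at 1 and 3, of 15 (19.6% and 16.4% of all). They did so without wild-type 2 as well, of 17 (20.5% and 20.9% of all). In DESeq2's Wald test 1 of 17 was higher and 1 lower (16.3% and 9.8% of all). With 50 or more counts required in 3 libraries it was 1 and 1 of 5 (31.8% and 25.8% of all). With no low-count filter it was 2 and 2 of 99 (1.74% and 1.22% of all). Groups did not overlap for 7 of the 15, against 58.7% of all fragments tested. The median log2 fold change (knockout minus wild-type throughout) was 0.14 for the 15 members and -0.01 for all 235. Overlapping fragments of 1 tRNA are not independent of each other, and counts are relative to the other fragments of a library, so amounts per cell were not measured.

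As a share of all counts, the 5' members did not separate the groups. The 5' members took 5.40%, 5.67% and 9.73% of the counts of wild-type 1 to 3 and 6.53%, 7.80% and 7.91% of knockout 1 to 3, with means of 6.93% ± 2.43 and 7.41% ± 0.770 (SD, n = 3 each). The knockout libraries lay between the wild-type ones, since wild-type 3 was the highest of the 6. Without wild-type 3, the knockout mean was higher by 1.88 percentage points instead of 0.484, and without wild-type 1 or 2 the difference (knockout minus wild-type) turned to -0.284 or -0.149 points. Without knockout 1 the difference was 0.927 points, and without knockout 2 or 3 it was 0.289 or 0.234. With the 5' forms of 16 to 18 nt added to all 6 libraries, it was 1.29 points. Internal members took 0.769%, 0.832% and 1.19% of the counts in wild-type and 0.562%, 0.816% and 0.859% in the knockouts, also with overlap. That difference of -0.184 points became -0.0550 without wild-type 3 and -0.0926 without knockout 1. No p-value was computed for these sums.

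Within the 5' members, which have 19 nt or more, the knockout means had a smaller share of ends in the D-arm and a larger one in the anticodon arm. These class shares have no test. Fragments ending at positions 19 to 25, in the D-arm, made up 32.1%, 42.4% and 47.5% of the 5' member counts in wild-type 1 to 3 and 27.0%, 23.9% and 32.99% in knockout 1 to 3. The ranges overlap by a narrow margin, since knockout 3 lay above wild-type 1. The difference in means of -12.7 points was -9.30 without wild-type 3. Ends at positions 26 to 31, in the strand of the anticodon stem nearest the 5' end, took 41.6% ± 5.00 in wild-type and 49.5% ± 5.20 in the knockouts (SD, n = 3 each), with overlap. Ends at position 32 or later, in the anticodon loop and beyond, took 20.6%, 19.8% and 12.8% in wild-type and 22.1%, 22.2% and 23.2% in the knockouts, where every knockout library was above every wild-type one. This difference of 4.77 points was 2.29 without wild-type 3. By single end it was 5.93 points at position 33, 1.13 at position 32 and -2.03 at position 34. The end at 33 is the called form of 33 nt described below, so the rise of this class is no separate evidence. The shares also depend on the limit of 19 nt, which was varied after the values were seen. With the forms of 16 to 18 nt counted in, ends at 16 to 25 took 34.7%, 44.6% and 52.2% in wild-type and 37.5%, 34.7% and 43.3% in the knockouts, a difference of -5.32 points instead of -12.7. Ends at 32 or later then took 19.8%, 19.1% and 11.6% against 18.9%, 19.04% and 19.7%, and the groups overlapped. The differences were then 2.95 points for ends at 26 to 31, instead of 7.93, and 2.37 for ends at 32 or later. Fragment by fragment the ends were few: position 29 held 37.1% of the 5' member counts in wild-type and 44.6% in the knockouts, and position 23 held 37.2% and 25.3% (means of 3 libraries). Ends at 19 to 22 and at 27, 28, 35, 36 and 37 each averaged 1.10% or less in both groups.

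The 5' form of 33 nt was the 1 member that rose in the tested set. This 5'-half, tRF-33-79MP9P9NH57SD3, ends at the last base before the anticodon. It was measured at 3197, 2524 and 3764 counts per 1e6 scaled counts (CPM, with edgeR's TMM scaling) in wild-type 1 to 3 and at 7675, 7389 and 8079 CPM in knockout 1 to 3. All 3 knockout libraries were far above all 3 wild-type ones, and the spread within each group was small beside the gap. The log2 fold change was 1.28 (SE 0.249, adjusted p = 0.00184 in edgeR). It passed the threshold under all 13 alternatives run, with log2 fold changes from 1.08 to 1.47. Of the 5' member counts, this 1 length took 4.64% ± 0.542 in wild-type and 10.6% ± 0.803 in the knockouts (SD, n = 3 each).

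The neighbouring 5'-half forms, which differ from it by 1 base at the 3' end, did not pass the test. The form of 34 nt, tRF-34-79MP9P9NH57S15, which includes the first anticodon base, was at 2785, 3653 and 2525 CPM in wild-type and 1722, 1655 and 2203 CPM in the knockouts. Here the knockout libraries were the low ones, without overlap. The log2 fold change of -0.67 (SE 0.266) missed the threshold, with an edgeR adjusted p of 0.0523, and it passed without wild-type 3 (adjusted p = 0.0440 in edgeR) and among fragments with 50 or more counts in 3 libraries (adjusted p = 0.0428 in edgeR). The form of 32 nt, tRF-32-79MP9P9NH57SJ, was at 6085, 4981 and 4336 CPM in wild-type and 5067, 7153 and 7604 CPM in the knockouts. Those groups overlap, and the log2 fold change was 0.36 (SE 0.263, adjusted p = 0.270 in edgeR). Within a library, the count of the form of 33 nt divided by that of the form of 34 nt was 1.15, 0.691 and 1.49 in wild-type 1 to 3 and 4.46, 4.46 and 3.67 in knockout 1 to 3. The ratio needs no scaling between libraries, and it was picked out after the values were seen, so it has no test. Against the form of 32 nt the ratio was 0.525, 0.507 and 0.868 in wild-type and 1.51, 1.03 and 1.06 in the knockouts.

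The most abundant 5' members, of 29 and 23 nt, did not pass the test. The form of 29 nt, tRF-29-79MP9P9NH525, ends within the anticodon stem and was at 25989, 18796 and 31540.2 CPM in wild-type and 30552, 35881 and 31149.8 CPM in the knockouts. Wild-type 3 lay within the knockout range, and wild-type 1 and 2 below it. Its log2 fold change was 0.35 (SE 0.286, adjusted p = 0.319 in edgeR), and without wild-type 3 it was 0.58 and passed (adjusted p = 0.0454 in edgeR). The form of 23 nt, tRF-23-79MP9P9NDD, ends in the D-stem and was at 17704, 23512 and 36590.4 CPM in wild-type and 16137, 15488 and 24237 CPM in the knockouts. Groups overlapped and wild-type 3 was again the highest. Its log2 fold change was -0.48 (SE 0.332, adjusted p = 0.247 in edgeR), and without wild-type 3 it was -0.10 (adjusted p = 0.754 in edgeR). It was -0.27 without knockout 1 and -0.31 without knockout 2. The count ratio of 29 nt over 23 nt within a library was 1.47, 0.799 and 0.862 in wild-type and 1.89, 2.32 and 1.29 in the knockouts, so knockout 3 lay below wild-type 1.

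One base beyond position 23, the form of 24 nt fell. This 5' tRF, tRF-24-79MP9P9NF2, was at 997, 1063 and 1096 CPM in wild-type and 394, 709 and 389 CPM in the knockouts, from 29, 16 and 23 counts and 8, 12 and 9 counts. The knockout libraries were all below the wild-type ones, though knockout 2 was nearer to them. The log2 fold change was -1.10 (SE 0.359, adjusted p = 0.0248 in edgeR). The call ended without wild-type 1 (adjusted p = 0.0646 in edgeR), knockout 1 (0.140) or knockout 3 (0.121), with no low-count filter (0.294) and in DESeq2's Wald test (0.230).

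The other tested 5' members were not called. For the forms of 30 and 31 nt the log2 fold change was 0.09 (SE 0.372) and 0.14 (SE 0.272), and the groups overlapped. The form of 25 nt, tRF-25-79MP9P9NH5, shows how far wild-type 3 stands from its group, with 2, 2 and 29 counts in wild-type 1 to 3 and 12, 9 and 14 counts in knockout 1 to 3. Its log2 fold change was 0.14 (SE 0.786), and without wild-type 3 it was 2.64 (adjusted p = 0.00327 in edgeR), where it passed the low-count filter only through the knockout libraries, in which it is high. Among the 9 untested 5' members, the form of 28 nt, tRF-28-79MP9P9NH50E, had the most counts, 66. It was at 378, 266 and 238 CPM in wild-type and 886, 1064 and 432 CPM in the knockouts, without overlap. With 1 library left out it was called higher in 3 fits. These were without wild-type 1 (adjusted p = 0.0374 in edgeR), wild-type 3 (0.0448) and knockout 3 (0.0206). There it passed the low-count filter only through the knockout libraries, in which it is high. These untested 5' members held 227 of the 8887 counts of 5' members.

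The internal members were mostly 5' fragments short of a few bases at the start. Of the 81, 56 started at positions 2 to 7, in the acceptor stem, and these held 92.9% ± 2.85 of the internal member counts in wild-type and 92.1% ± 2.45 in the knockouts (SD, n = 3 each). Starts at positions 16 to 21, at or just past the D-loop site, took 0.397%, 1.53% and 3.65% in wild-type and 4.27%, 4.58% and 4.04% in the knockouts. The knockout shares were all higher, but on 5, 6 and 8 counts against 1, 2 and 8 in wild-type. Wild-type 3 thus had as many counts as knockout 3, and the separation rests on few counts. Starts at 8 to 15 took 5.24% ± 1.22 and 3.57% ± 2.24, with overlap, and 0 members started later than position 21.

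The internal members also shared the 3' ends of the abundant 5' forms, 23 and 29. Those ending at position 23 made up 63.5%, 71.8% and 67.1% of internal member counts in wild-type 1 to 3 and 42.7%, 45.0% and 48.5% in knockout 1 to 3. Those ending at position 29 made up 21.8%, 11.5% and 15.98% in wild-type and 29.9%, 27.5% and 22.2% in the knockouts. Groups did not overlap at either end, although at position 29 they nearly met. The shares are parts of 1 whole, so a lower share at 23 raises the others. Internal members ending at 23 had 160, 94 and 147 counts in wild-type and 50, 59 and 96 in the knockouts. The 2 called fragments described below are among them. That of positions 4 to 23 had 45, 29 and 30 counts against 7, 10 and 17. That of positions 5 to 23 had 18, 10 and 13 against 2, 0 and 5. The lower share at 23 is thus no separate evidence. In counts, those ending at 29 had 55, 15 and 35 in wild-type and 35, 36 and 44 in the knockouts. Against all exact members ending at 29, starts at position 2 or later made up 5.51% ± 1.12 in wild-type and 5.51% ± 0.215 in the knockouts (SD, n = 3 each). This grouping by end was made after the counts were seen and has no test. The 5' members, summed in the same way, had less at 23 and more at 29 in the knockout means too, but with overlap between libraries.

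Both internal members that changed end at position 23 and start inside the acceptor stem. Lacking 3 bases at the start, tRF-20-8W1W18YM (positions 4 to 23) was at 1547, 1926 and 1429 CPM in wild-type and 344, 591 and 735 CPM in the knockouts. All knockout libraries were below all wild-type ones. The log2 fold change was -1.53 (SE 0.350, adjusted p = 0.00489 in edgeR), and it passed under all 12 alternatives in which it could be tested. Lacking 4 bases, tRF-19-3L7L73JD (positions 5 to 23) had 18, 10 and 13 counts in wild-type and 2, 0 and 5 counts in the knockouts. That is 634 ± 26 CPM in wild-type and 105 ± 108 CPM in the knockouts (SD, n = 3 each), a log2 fold change of -2.41 (SE 0.599, adjusted p = 0.00752 in edgeR). Like the other lower members, it passed the low-count filter through the wild-type libraries, in which it is high. This call ended without knockout 1 (adjusted p = 0.0693 in edgeR) and in DESeq2's Wald test (0.0517).

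Fragments with the same end and an earlier start differed less. The fragment of positions 2 to 23, tRF-22-ZRS3S3RX5, the most abundant internal member, was at 2200.1, 2457 and 3144 CPM in wild-type and 1328, 1832 and 1858 CPM in the knockouts. Groups did not overlap, but the log2 fold change of -0.63 (SE 0.271) had an edgeR adjusted p of 0.0673. Without wild-type 3 it was -0.43 (adjusted p = 0.215 in edgeR). The fragment of positions 3 to 23, tRF-21-YSV4V47QD, overlapped between groups, with a log2 fold change of 0.15 (SE 0.466). Against the full set of exact fragments ending at 23, the 5' form from position 1 included, those starting at position 4 or later made up 11.8%, 10.5% and 5.69% in wild-type 1 to 3 and 2.92%, 3.76% and 3.81% in knockout 1 to 3. Those starting at position 2 made up 8.35% ± 1.15 and 7.81% ± 1.68, with overlap. The same division of the fragments ending at 29 gave 2.94% ± 1.04 and 2.83% ± 0.575 for starts at position 4 or later. The division by start was made after the values were seen, and at end 23 it sets apart the 2 called fragments, so it is no separate evidence.

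Sparse internal members that start at positions 5 to 8 were low in the knockout as well. The fragment of positions 5 to 32, tRF-28-3L7L73V6M9DV, had 11, 5 and 3 counts in wild-type and 1, 0 and 2 counts in the knockouts. That of positions 6 to 23, tRF-18-MP9P9NDD, had 10, 4 and 2 against 1, 0 and 1, and that of positions 8 to 23, tRF-16-V4V47QD, had 6, 4 and 7 against 1, 2 and 1. Summed without the called tRF-19-3L7L73JD, the untested internal members starting at 5 to 8 had 34, 18 and 14 counts in wild-type and 6, 5 and 5 in the knockouts, or 13.5%, 13.7% and 6.39% of internal member counts against 5.13%, 3.82% and 2.52%. These were picked out after their values were seen, and below the filter they have no test. Starts at position 2 or 3 took 49.6% ± 6.44 in wild-type and 67.2% ± 3.30 in the knockouts (SD, n = 3 each). The rest of the same whole holds the called fragments that start at 4 and 5, which are lower in the knockout. This higher share is thus no separate evidence.

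Of the tested internal members ending at 29, neither was called. From position 2, tRF-28-ZRS3S3RX8H05 was at 447, 199 and 524 CPM in wild-type and 640, 887 and 562 CPM in the knockouts. Groups did not overlap, and the log2 fold change was 0.75 (SE 0.419, adjusted p = 0.152 in edgeR). From position 4, tRF-26-8W1W18YMEND overlapped between groups at 768 ± 386 and 895 ± 164 CPM (SD, n = 3 each), with a log2 fold change of 0.17 (SE 0.405).

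Of the sparse internal members read in the knockout libraries alone, 1 had the most counts. The fragment of positions 2 to 17, tRF-16-ZRS3S30, which ends 1 base past the D-loop site, had 0 counts in each wild-type library and 6, 5 and 12 counts in knockout 1 to 3. Set against a floor of 3 counts over the 66923 wild-type counts, the 23 counts of 59917 in the knockout group are 8.56-fold higher. The floor covers counting error of the pooled wild-type counts only. Error in the 23 knockout counts and the spread between libraries are left out, so 8.56 is not a lower bound of the fold. The low-count filter left it out, and with no filter, over 3443 fragments, its edgeR adjusted p was 1.39e-04. It was picked out after its values were seen. The 5' forms that end at nearby positions lie outside the length limit. The form of 16 nt, tRF-16-79MP9PE, had 28, 11 and 21 counts in wild-type and 96, 83 and 109 counts in the knockouts. The form of 17 nt, tRF-17-79MP9PP, had 18, 11 and 143 in wild-type and 119, 111 and 202 in the knockouts, so wild-type 3 was inside the knockout range. The form of 18 nt, tRF-18-79MP9P04, had 24, 14 and 12 in wild-type and 13, 14 and 21 in the knockouts. Of these 3, the form of 16 nt was called (log2 fold change 2.39, SE 0.261, adjusted p = 1.26e-04 in edgeR), while 17 nt had 1.37 (SE 0.698, adjusted p = 0.119 in edgeR; 3.44 without wild-type 3, adjusted p = 6.83e-05) and 18 nt had 0.04 (SE 0.344, adjusted p = 0.919 in edgeR). The 5' forms of 19, 20, 21 and 22 nt were sparse, and none of them passed the filter.

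For comparison, other abundant 5' fragments of 19 nt or more were counted in the same way. Of 9 tested tRNA-Val 5' members 1 was higher and 1 lower. Of 13 tested fragments with the code start PNR8YP, from a tRNA-Gly, 2 were higher and 2 lower, and their median log2 fold change was -0.36. Of 9 tested with the code start 87R8WP, from a tRNA-Glu, 2 were higher and 3 lower, with a median of -0.13. The median over the 9 tRNA-Val 5' members was 0.14, and that over all 73 tested 5' tRFs and 5'-halves, these sets included, was also 0.14, with 42.5% called. Differences between these sets were not tested. Among internal tRFs, 2 of 6 tRNA-Val members were lower and 0 higher, while of all 121 tested 14.9% were lower and 34.7% higher. Those 2 entered the tested set through the wild-type libraries, in which they are high, so their number is no separate evidence.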

How the data were processed

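The authors deposited 1 table of raw read counts per fragment for the 6 libraries, not normalized. Per the series' design text, MINTmap assigned the reads to fragments and the authors' own comparison used DESeq2, and FastQC, cutadapt and the GRCh38 (hg38) build are named in the submitters' processing notes. Their versions, and any filter, are not stated here. MINTbase codes were decoded to sequence (2 characters for 5 bases), giving 3443 different sequences of 16 to 50 nt. Members and lists were chosen with earlier results of these data known. Counts of all fragments were filtered with filterByExpr (minimum count 10), scaled by TMM on library totals and tested with edgeR 4.0.16 in R 4.3.3 (quasi-likelihood, two-sided, Benjamini-Hochberg over 235 fragments). SE is the fold change over the root of F. Only the members are printed. DESeq2 1.42.0 was an alternative. The test was checked on simulated counts. Without molecular identifiers on the reads, the true error is at least the counting error.

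Per-library values are given for called members and the 6 most abundant tested ones, and other members are given by range, counts or, where stated, by choice after their values were seen.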

Additional observations from a re-analysis of the deposited data

How the results depend on the processing

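Depth kept 84 members from being tested. None of the alternatives run changed the direction of any of the 9 members that were called or most abundant. Leaving out 1 library moved the uncalled 5' form of 18 nt between -0.085 (without wild-type 3) and 0.30 (without knockout 1), and without knockout 3 it was -0.029 on the log2 scale. Main counts were 1 higher and 3 lower. The lower count was 1 in DESeq2's Wald test and with 50 or more counts required in 3 libraries, where the 3 lower members were too sparse and the form of 34 nt was lower instead. The higher count was 2 with no low-count filter, which let in the fragment of positions 2 to 17. Leaving out 1 library gave 1 to 4 higher and 1 to 4 lower. Without wild-type 3, the forms of 25, 28 and 29 nt joined the form of 33 nt as higher, those of 25 and 28 nt through knockout libraries in which they are high, and that of 34 nt joined the lower ones. Without wild-type 1 or knockout 3, the form of 28 nt alone joined the form of 33 nt, again through such knockout libraries. Without knockout 1, only the fragment of positions 4 to 23 was still lower. Same-numbered libraries of both groups had correlations of deviations of 0.371, -0.0703 and 0.107 across tested fragments. Unlike-numbered ones ran from -0.273 to 0.186. The main fit did not take the numbers as pairs, and these values do not settle whether they are. With a replicate block the counts were 1 and 3, the same 4 fragments, and no call of those 9 members changed. The 5' form of 17 nt passed with the block (2.09, adjusted p = 0.0152 in edgeR) and with no low-count filter (1.47, adjusted p = 0.00560 in edgeR). DESeq2's size factors, upper quartile scaling and library totals gave the same 4 fragments. The differences in shares by class of end kept their sign under each alternative. Adding the 5' forms of 16 to 18 nt, an alternative chosen after the data were seen, made all of them smaller. They were then -5.32 points instead of -12.7 for D-arm ends, 2.95 instead of 7.93 for ends at 26 to 31, and 2.37 instead of 4.77 at 32 or later. That of ends at 32 or later was 2.29 without wild-type 3. Of the differences by class of start, that of starts at 2 to 7 changed sign without wild-type 1, from -0.777 to 0.587 points. The cause of the changes was not tested.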

Other observations

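Beyond the 99 members and the 3 shorter 5' forms, 3 rows typed as 5' fragments share 14 or more bases with the longest 5' member. Each carries the 5' end of the tRNA with 1 added base before position 1, and each had 1 count over the 6 libraries, 3 counts in all. Of the 99 members, 28 were read in wild-type libraries alone and 28 in knockout libraries alone, and 40 members had a single count. A member with a single count falls in 1 group by necessity. The same shares over all fragments are not given here, so these numbers describe no trait of the members. Of the fragments read in 1 group alone, tRF-16-ZRS3S30 had the most counts, 23, and the next had 6.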
